A study of Mus musculus with 8 samples.

Results

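Strong regions of NanogBiD alone were stretches of chromatin where NanogBiD gave a confident peak and none of the other 7 libraries gave any. To find them, the peaks of all 8 CUT&Tag libraries were merged wherever they overlapped by 1 bp or more, which gave 306466 regions. The members were chosen by their NanogBiD peak: no peak of another library in the region and a highest NanogBiD peak score of 100 or more. In all, 3993 regions met the rule, 1.3% of the merged regions, 5.36% of the 74457 regions with a NanogBiD peak and 35.5% of the 11250 regions with a NanogBiD peak alone.

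The libraries came from mouse embryonic fibroblasts of the OG2 line, which carry a reporter of the Oct4 gene, at day 3 after retroviral delivery of reprogramming factors. In CUT&Tag, a transposase is tethered by an antibody to a chromatin protein and tags the DNA nearby for sequencing. Here the antibody was raised against Flag, the tag on the delivered factor. The factors were native Nanog, Oct4, Sox2 and Nr5a2 and, in the other 4 libraries, fusions of them with BiD, a stretch of SS18 that binds BRG1 and was placed at the start of the factor. Each group held 1 library, the titles did not say which other factors the cells received, and the retrovirus drives the factor in place of its own gene's promoter. The study's reporting summary says that the experiment was done once, with no biological replicates. No difference between libraries below could therefore be tested against replicate error. Intervals are 95% intervals over regions and cover counting error only.

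Nanog is a homeodomain protein of the naive pluripotent state that binds short DNA words with an ATTA core. BRG1 (Smarca4) is the ATPase of the BAF complex, which slides and ejects nucleosomes, and SS18 is a BAF subunit. Fibroblast enhancers are known for binding by AP-1, TEAD and RUNX factors, whose DNA words are therefore useful landmarks beside the word of Nanog.

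The windows below show what the summits looked like in sequence. Each runs from 50 bp before to 50 bp after the summit of the peak, on the plus strand of mm10 (GRCm38), read from the RefSeq sequence of that assembly. Capitals mark the NANOG word GCCATTA or its reverse complement TAATGGC. The first is the member with the highest score, which held neither that word nor its core of 6 bases, and the next 4 are among the highest-scoring members that held the full word.
Prl5a1, chr13:28142150-28142250: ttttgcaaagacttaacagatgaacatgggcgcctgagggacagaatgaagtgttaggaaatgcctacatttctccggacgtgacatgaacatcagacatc
Rpn2, chr2:157320242-157320342: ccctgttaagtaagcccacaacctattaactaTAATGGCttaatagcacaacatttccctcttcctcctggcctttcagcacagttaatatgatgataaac
Dnajc2, chr5:21775403-21775503: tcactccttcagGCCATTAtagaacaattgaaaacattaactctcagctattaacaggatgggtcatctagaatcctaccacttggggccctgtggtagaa
1700123O21Rik, chr16:6090147-6090247: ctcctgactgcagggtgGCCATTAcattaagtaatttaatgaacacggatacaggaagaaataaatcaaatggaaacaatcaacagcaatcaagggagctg
Slc25a12, chr2:71327205-71327305: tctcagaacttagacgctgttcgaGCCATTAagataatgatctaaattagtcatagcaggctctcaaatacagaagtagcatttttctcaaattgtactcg
Each window is named by the gene with the nearest annotated start site, which need not be its target.

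Each member held exactly 1 NanogBiD peak. The score, which the peak caller gives as −10 times the log10 of its p-value, ran from 100.01 to 795 with a median of 143, with lower and upper quartiles of 117 and 195. The summit height ran from 9 to 64 tags with a median of 19, and the length from 257 to 3334 bp with a median of 829 bp. Most members therefore lay near the lower limit, with 1809 at a score of 150 or more, 914 at 200 or more, 244 at 300 or more and 23 at 500 or more. These values chose the members and carry no test. The 3 members just inside the limit scored 100.01, 100.02 and 100.04 with summits of 13, 11 and 12 tags, and the 3 regions just outside scored 99.97, 99.97 and 99.94 with summits of 15, 16 and 18 tags. At its edge the limit thus did not part taller from lower summits.

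**Figure D1:**
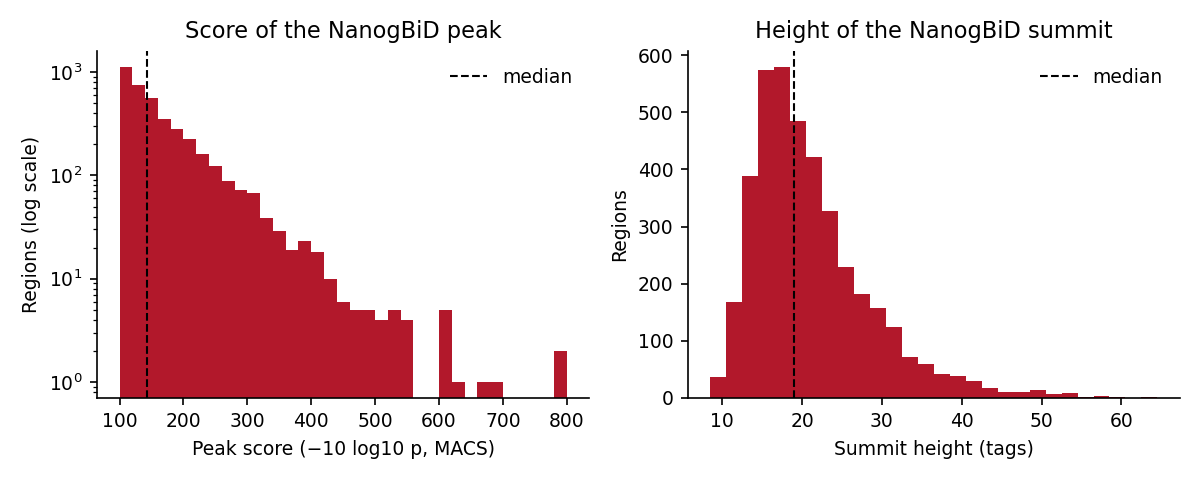
Left, scores of the NanogBiD peak in the 3993 members (x axis, −10 log10 p; y axis, regions on a log scale); right, heights of the same summits in tags. Dashed lines mark the medians, 143 and 19 tags, and both plots thin out into a long right tail.

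Peak heights are not scaled to depth, and the total reads of a library are not in the peak lists. The reporting summary gives NanogBiD more read pairs than native Nanog, native Nr5a2, Oct4BiD and Sox2BiD. It gives NanogBiD fewer than native Oct4, native Sox2 and Nr5a2BiD, though more uniquely mapped pairs than native Oct4. The NanogBiD list held 75769 peaks with a median summit of 20 tags, and the native Nanog list 73465 peaks with a median summit of 16 tags. Of the members, 3114 (78.0%) had a summit at or above the native median of 16 tags. Native Nanog had 2164 regions of its own by the same rule, and the other factors had between 759 (Nr5a2BiD) and 19330 (Sox2BiD). The part of depth in these counts cannot be told apart from that of the fusion.

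The absence of a peak is not a measured zero, so the distance to the closest peak of the other libraries was measured. The median gap between a member and the nearest native Nanog peak was 8416 bp. Of the members, 260 (6.51%) lay within 1 kb of a native Nanog peak, 2245 (56.2%) lay within 10 kb and 54 lay more than 100 kb away. Against any other library the median gap was 1744 bp, with 1313 members (32.9%) within 1 kb and 3821 (95.7%) within 10 kb. The closest lists were those with the most peaks: the median gap was 5151 bp to Sox2BiD and 5858 bp to native Nr5a2, but 12281 bp to native Sox2. The nearest NanogBiD peak that was not itself a member lay at a median of 8112 bp, with 292 members (7.31%) within 1 kb. Native Nanog peaks were thus about as far from members as the nearest NanogBiD peak outside the members was.

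Members lay mainly outside promoters. Of the 3993 summits, 466 (11.7%, 95% CI 10.7 to 12.7) lay within 2 kb of an annotated start site, where 10.9% of the genome lies. The share was 5.87% (4.92 to 6.94) in the 2164 strong regions of native Nanog alone. It was 10.1% (9.48 to 10.8) in the 7914 regions that both Nanog libraries and no other held with a NanogBiD score of 100 or more, and 23.1% over all NanogBiD peaks. Members were thus closer to the genome's share than to that of NanogBiD peaks in general. Their share was above that of native Nanog alone, with 1 library on each side and no test. The strong own regions of Sox2BiD, Oct4BiD and Nr5a2BiD had like shares (11.2%, 10.8% and 9.75%). Those of native Sox2, Oct4 and Nr5a2 had 6.73%, 7.91% and 18.4%. Regions with a peak in all 8 libraries and a NanogBiD score of 100 or more had 68.1%. The median distance to a start site was 13349 bp for members and 24611 bp for native Nanog alone.

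By annotation, 2157 member summits (54.02%, 52.5 to 55.6) lay in introns, 1653 (41.4%) between genes, 90 (2.25%) in exons of transcripts without a coding frame, 65 (1.63%) in untranslated regions and 28 (0.701%) in coding exons. Native Nanog alone was weighted the other way, with 40.8% (38.7 to 42.9) in introns and 56.1% between genes. Annotated repeats held 9.99% (9.08 to 10.96) of member summits, against 26.1% of points 500 bp to either side and 34.3% of the genome. Native Nanog alone had 8.64% (7.49 to 9.91) in repeats, while the strong own regions of native Oct4 had 37.7%. The same filter on repetitive reads was applied to each library before peaks were called, so flanks and genome are not an equal baseline for peaks. Over all NanogBiD peaks the repeat share was 8.74%. The base composition of members was ordinary, with a median GC of 42.6% in the window and 43.6% in the flanks.

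Sequence was not used by the rule, and of 18 words searched the full word of Nanog had the highest ratio of summit to flanks in members. GCCATTA, searched on both strands within 50 bp of the summit, was found at 191 of 3993 summits (4.78%, 4.14 to 5.49) and in 1.0% of flanking windows of equal size centred 500 bp away. The ratio of centre to flank was 4.78 (3.69 to 6.18). In strong regions of native Nanog alone the share was 1.71% (1.21 to 2.35) and the ratio 2.11 (1.34 to 3.35). Regions of both Nanog libraries only lay between them in share, at 3.63% (3.23 to 4.06) and a ratio of 4.22 (3.45 to 5.17). Over all NanogBiD peaks the share was 2.55%. The 7257 NanogBiD-alone regions with a score under 100 stood at 3.69%, and the 3979 regions of NanogBiD with other factors but no native Nanog at 3.64%, both near the share of regions of both Nanog libraries. Members thus had the highest share of these sets, and most members still lacked the word.

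The core CCATTA, which is contained in the full word, gave the same order with more matches. It was found at 588 member summits (14.7%, 13.6 to 15.9), 3.68 times (3.22 to 4.19) the flanks. The share was 11.6% (10.9 to 12.4) in the 7257 NanogBiD-alone regions with a score under 100 and 11.4% (10.7 to 12.1) in regions of both Nanog libraries only. It was 6.05% (5.09 to 7.14) in native Nanog alone, 1.43 times the flanks. In the strong own regions of the other 6 libraries the share was between 2.61% (native Nr5a2) and 5.32% (Oct4BiD). Matches clustered at the middle of the peak: in the 20 bp just before the summit, members held 2.0 matches per kb, both-library regions 1.28 and native Nanog alone 0.716.

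**Figure D2:**
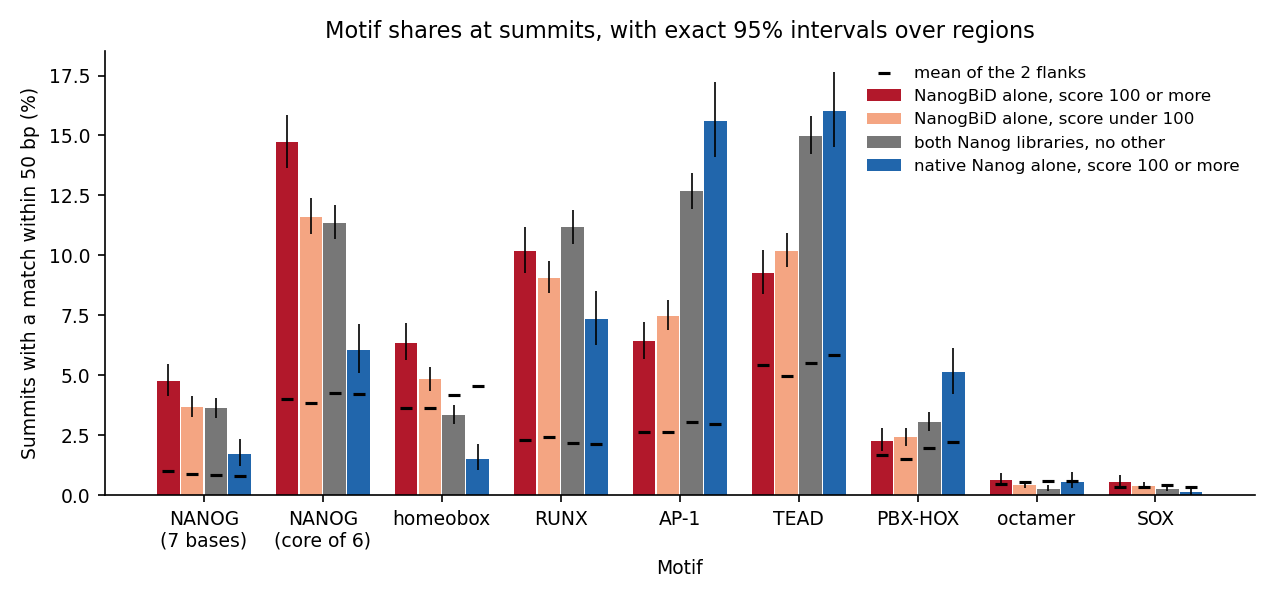
Share of summits with a match within 50 bp (y axis, percent) for 9 motifs in 4 sets of regions, with exact 95% intervals over regions as error bars and the mean of the 2 flanking windows as short dashes. NANOG words and the homeobox word were highest in members (14.7% for the core), and AP-1 and TEAD words were highest in native Nanog alone (15.6% and 16.0%).

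A second homeobox word also differed between the sets. TAATTA, the word shared by many homeodomain proteins, was found at 254 member summits (6.36%, 5.62 to 7.16), 1.75 times (1.49 to 2.06) the flanks. In native Nanog alone it stood below its flanks, at 1.52% (1.05 to 2.13) and 0.333 times (0.231 to 0.480) the flanks. Regions of both Nanog libraries only had 3.36% (2.98 to 3.78), 0.804 times (0.699 to 0.924) the flanks. So the same word was denser than the flanks in members and sparser in these 2 sets, but neither was particular to them. It was also sparser in the strong own regions of native Sox2, Oct4 and Nr5a2 (0.204, 0.402 and 0.475 times). The same held for Sox2BiD and Nr5a2BiD (0.529 and 0.563 times). It was denser in those of Oct4BiD (1.34 times) and in NanogBiD-alone regions with a score under 100 (1.33 times). Regions of NanogBiD with other factors but no native Nanog also held it more densely (4.65%, 1.47 times).

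The word TGANTCA of AP-1, the dimers of Fos and Jun proteins that open fibroblast enhancers, went the opposite way. It was found at 257 member summits (6.44%, 5.69 to 7.24), 2.45 times (2.05 to 2.93) the flanks, against 15.6% (14.1 to 17.2) and 5.28 times (4.34 to 6.43) in native Nanog alone. The word CATTCC of TEAD, which works with the Hippo coactivators Yap and Taz, was found at 9.27% (8.38 to 10.2) of members and 16.0% (14.5 to 17.6) of native Nanog alone. Both words were thus still above the flanks in members, but less common than in native Nanog alone. Members were not low in them against every set. In strong own regions, AP-1 was lower for native Nr5a2 (4.81%), Oct4 (4.97%) and Sox2 (5.41%) and for Oct4BiD (4.13%). AP-1 was higher than in members for Sox2BiD (10.7%) and Nr5a2BiD. TEAD was lower for native Nr5a2 (6.12%), Oct4 (8.67%) and Sox2 (7.89%). It was also lower for Oct4BiD (6.68%) and Sox2BiD (8.24%), and higher for Nr5a2BiD. In regions of both Nanog libraries only, AP-1 stood at 12.7% (11.9 to 13.4) and TEAD at 15.0% (14.2 to 15.8).

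RUNX was the word with the next highest ratio, and its interval overlapped that of the full NANOG word. AACCACA, bound by Runx factors such as the bone and mesenchyme regulator Runx2, was found at 407 member summits (10.2%, 9.27 to 11.2), 4.40 times (3.71 to 5.21) the flanks. The share was 11.2% (10.5 to 11.9) in regions of both Nanog libraries only and 7.35% (6.28 to 8.53) in native Nanog alone. RUNX and NANOG words did not gather at the same members: RUNX was found at 9.01% (6.82 to 11.6) of the 588 members with the NANOG core and at 10.4% (9.39 to 11.5) of the 3405 without it, and the intervals overlapped. Both words were found together at 53 members.

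The words of the partner factors were rare, but the rule had removed every region with a peak of those factors, native or fused. The octamer ATGCAAAT of Oct4 was found at 25 members (0.626%, 0.406 to 0.923), the SOX word CCATTGTT at 22 (0.551%, 0.346 to 0.833) and the NR5A word TCAAGGTCA at 3 (0.0751%, 0.0155 to 0.219). In strong own regions they reached 16.2% (octamer, Oct4BiD), 4.97% (SOX, Sox2BiD) and 3.84% (NR5A, native Nr5a2). Over all NanogBiD peaks they stood at 0.670%, 0.401% and 0.136%. Their rarity in members is thus no evidence about NanogBiD. The ratio to the flanks was 1.351 (0.815 to 2.24) for the octamer and 1.57 (0.900 to 2.74) for the SOX word, so neither interval lay above 1. The shorter SOX core ATTGTT was found at 7.86%, 1.22 times (1.07 to 1.4) the flanks. Of the remaining words, CEBP (TTGCNNAA) stood at 5.53%, 1.28 times (1.09 to 1.51) the flanks, and PBX-HOX (TGATTNAT) at 2.28%, 1.37 times (1.05 to 1.78). PBX-HOX was thus lower in members than in native Nanog alone, where it stood at 5.13% (4.24 to 6.14). The GATA word AGATAA stood at 0.915 times (0.788 to 1.06) the flanks and KLF (CCACACCC) at 1.0 times (0.625 to 1.60). CTCF (CCACCAGGG), ETS (CCGGAAGT), CRE (TGACGTCA) and RFX (GTTGCCATG) were each found at 3 members.

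**Figure D3:**
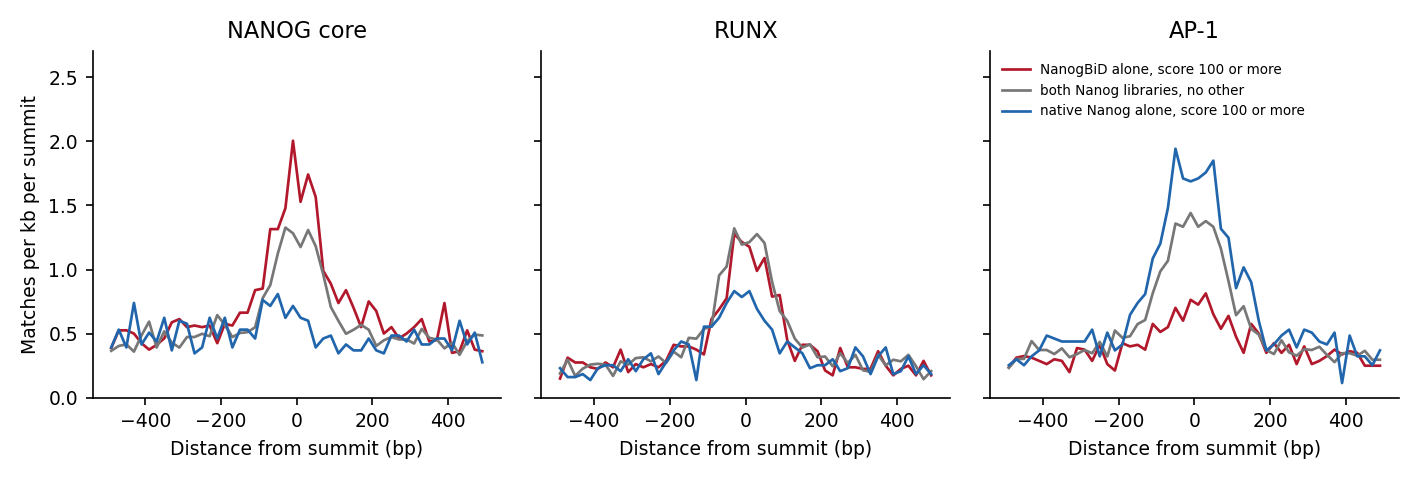
Matches per kb per summit (y axis) in steps of 20 bp against distance from the summit in bp (x axis) for the NANOG core, RUNX and AP-1 words. Members (red) reached 2.0 matches per kb for the NANOG core beside the summit, while native Nanog alone (blue) was the highest line for AP-1.

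All 1937 words of 6 bases found at 20 or more member summits were then ranked by the ratio of centre to flank, as a description with no test. The highest were CGTTAA (124 summits, 3.11%, ratio 5.64), CGATTA (71 summits, ratio 4.58), TAACGA (100 summits, ratio 3.70), CCATTA (3.68) and CATTAA (732 summits, 18.3%, ratio 3.32). Next came AACGTC (3.05), AACGAC (2.95), the RUNX part AACCAC (2.94), ATTAAG (2.90) and ACGTTA (2.81). Several of these words overlap. The core CCATTA runs on into CATTAA and that into the word ATTAAG, so 1 longer match can count for all of them, and the reverse complement of TAACGA shares 5 bases with the top word. The top word CGTTAA had a ratio above that of the full NANOG word, and it holds a CpG, which is rare in the mouse genome. In native Nanog alone it was found at 0.786% of summits, 1.1 times the flanks, and in regions of both Nanog libraries only at 1.87%, 2.87 times. For CATTAA these ratios were 1.01 and 2.09.

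Words of NANOG core, homeobox, RUNX, AP-1 and TEAD together covered 1590 members (39.8%, 38.3 to 41.4) and 16.7% of flanks. The other 2403 members (60.2%) held none of them within 50 bp. The covered share was 40.9% (38.9 to 43.0) in native Nanog alone and 44.8% (43.7 to 45.9) in regions of both Nanog libraries only. Coverage was thus like that of native Nanog alone and somewhat lower than that of regions of both libraries, with other words making up the sum.

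**Figure D4:**
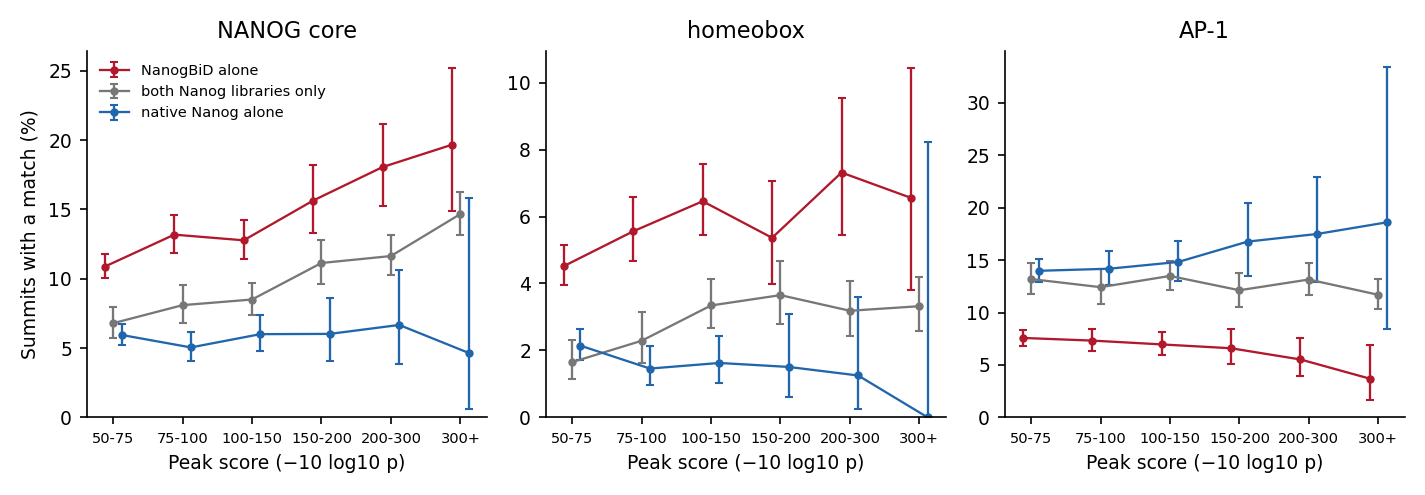
Share of summits with a match (y axis, percent, exact 95% intervals over regions) by peak score (x axis; each step starts at its first number and ends below its second) for NanogBiD alone, both Nanog libraries only and native Nanog alone. Steps of 100 or more hold the members; scores are those of NanogBiD except for native Nanog alone, and the NANOG core went from 10.9% to 19.7% in NanogBiD alone while AP-1 went from 7.58% to 3.69%.

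The score itself moved with these shares, so the sets were also read at like scores. Among regions of NanogBiD alone the NANOG core was found at 10.9% (10.02 to 11.8) of the 4936 with a score of 50 to under 75. It was found at 12.8% of members from 100 to under 150, 15.6% from 150 to under 200, 18.1% from 200 to under 300 and 19.7% (14.9 to 25.2) of the 244 members at 300 or more. AP-1 went the other way, from 7.58% in the lowest step to 3.69% (1.70 to 6.89) in the highest. At 100 to under 150, regions of both Nanog libraries only held the core at 8.5% (7.41 to 9.70) and native Nanog alone at 6.0% (4.82 to 7.37). For AP-1 at the same scores, the shares were 6.96% (5.93 to 8.11) in members, 13.5% (12.1 to 14.9) in regions of both libraries and 14.8% (13.0 to 16.8) in native Nanog alone. The order of the sets was thus the same within this step as over all scores, where the native scores come from another library and are not on the same depth.

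The member with the highest score lay 284 bp from the start site of Prl5a1, a gene of the placental prolactin family on chromosome 13, with a score of 795 and a summit of 49 tags. The nearest native Nanog peak was 27.0 kb away. The second lay 97.6 kb from Elavl4, a neuronal RNA-binding protein, with a score of 790 and a summit of 57 tags, and held the NANOG core. Then came an intron of Rasgef1b, nearest to the start site of Gm16228 (680, 49 tags, with the homeobox word), a site 4.77 kb from Dnajc21 (676, 57 tags) and an intron of Kif13a, a kinesin motor (631, 43 tags). A summit in an intron of Rpn2, a subunit of the oligosaccharide transferase, scored 614 with 54 tags. It lay 509 bp from the start of an Rpn2 transcript that is not annotated as protein-coding. The nearest start site of a protein-coding transcript was that of Ghrh, 17.1 kb away. For the sites named by Dnajc21 and Elavl4, the nearest such start lay 25.3 and 148 kb away. Most of the 20 strongest members lay more than 10 kb from the start site of a protein-coding transcript.

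Across the 20 highest members, scores ran from 506 to 795. Others lay nearest to the start sites of Gm11782, Gm22149, Gm17954, Gm38249, 2310016D23Rik, Dnajc2, Gm8907, Gm4808, Gm28497, Gm47340, Gm14824, Gm6555 and Gm11799, most of them pseudogenes or noncoding genes. Among the hosts were introns of Rgs6, a regulator of G-protein signalling, Nav3, a neuron navigator, and Car8, a carbonic anhydrase relative. The summit next to 2310016D23Rik lay in an untranslated region of Cd28, the costimulatory receptor of T cells. Of the 20, the member near Gm11799 was the closest to a native Nanog peak, at 3.55 kb.

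Members were spread over the genome. They ranged from 0.649 per Mb on the X chromosome to 2.0 per Mb on chromosome 19, and made up between 4.70% (chromosome 7) and 5.92% (X) of the NanogBiD peaks of each chromosome other than Y, which had no member. Of 2645 windows of 1 Mb, 1701 held a member and the mean was 1.51 a window. Of the 3 fullest windows, 2 held 9 members each. The one at chr16:32000001-33000000 had a median score of 206 and 24 protein-coding genes, Tfrc, the transferrin receptor, the mucins Muc4 and Muc20 and the kinases Pak2 and Tnk2 among them. The one at chr9:96000001-97000000 had a median score of 154 and contains Atp1b3, Gk5, Gm28729, Pxylp1, Rasa2, Rnf7, Spsb4, Tfdp2, Xrn1 and Zbtb38. Members thus followed the NanogBiD peaks at large and no chromosome stood out for its share of them.

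Genes were then read by lists, counting a gene when a member summit lay within 100 kb of one of its start sites. Over all 21911 annotated protein-coding genes, 29.9% had such a member, 9.74% had a strong region of native Nanog alone and 42.3% had a region of both Nanog libraries only. These shares are the background for every count below.

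The first list held 9 genes that the study names as targets or helpers of NanogBiD, and the study picked them from its own NanogBiD data, so their count is not independent evidence. Of the 9, 6 had a member (66.7%, against 29.9% of all genes), 1 had a region of native Nanog alone and 2 a region of both libraries. Esrrb, an orphan nuclear receptor of naive pluripotency, had 5 members, with scores of 274, 106, 246, 102 and 173 and summits of 24, 18, 24, 20 and 20 tags. The nearest lay 3.66 kb from an Esrrb start site, in an intron, and the strongest lay 89.0 kb away in an intron of a neighbour, closest to Gpatch2l. None of the 5 held a NANOG word.

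Sall4, a zinc finger factor of early embryos, had 1 member at 28.5 kb with a score of 114 and a summit of 13 tags. Dppa5a, a marker of pluripotent cells, had 1 at 22.1 kb, with a score of 207, a summit of 25 tags and a RUNX word. Sox15, a Sox factor of stem cells and muscle, had 1 at 69.3 kb that lay in an intron 2.67 kb from a start site of the tumour suppressor Trp53, with a score of 209 and a summit of 28 tags. Klf4, the Krüppel-like factor of the classical reprogramming cocktail, had 1 at 71.5 kb, with a score of 108 and the NANOG core. Foxb1, a forkhead factor of the developing brain, had 1 at 45.4 kb with a score of 198, a summit of 18 tags and the full NANOG word. Mir302a, Sox2 and Olig3 had no member within 100 kb. A NanogBiD peak that any other library shared could not make a member, so this is not an absence of NanogBiD peaks. Of the 9 genes, 4 had a member within 50 kb (background 17.9%) and all 9 within 200 kb (background 47.2%). The windows of the members near Foxb1 and Klf4 are shown because they hold the Nanog word, with capitals on the full word and on the core.
Foxb1, chr9:69715504-69715604: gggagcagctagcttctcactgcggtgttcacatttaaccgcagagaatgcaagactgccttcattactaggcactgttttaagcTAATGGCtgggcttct
Klf4, chr4:55603897-55603997: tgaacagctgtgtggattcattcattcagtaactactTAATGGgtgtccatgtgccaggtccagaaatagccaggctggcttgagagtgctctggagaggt
The member near Foxb1 lay 1.48 kb from a native Nanog peak, whereas the member near Dppa5a lay 90.5 kb from one. Members near genes of this list thus differed widely in their own gap to native Nanog peaks.

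Of 36 genes of the pluripotency network, 9 had a member (25%), close to the 29.9% of all genes, and 15 had a region of both Nanog libraries. Beside Esrrb, Sall4, Dppa5a and Klf4, these were Prdm14, Dppa3, Tet2, Nodal and Jarid2. Prdm14, a repressor of differentiation in naive cells, had 1 at 58.1 kb with a score of 233 and a summit of 27 tags. Tet2, which oxidises methylated cytosine, had 1 in its own intron 1.34 kb from a start site, with a score of 144 and an AP-1 word. Nodal, a ligand of the TGF-beta family, had 1 at 93.6 kb with a score of 107 and 44 tags. Dppa3, the maternal factor Stella, had 1 at 24.0 kb in an untranslated region of a neighbour, 3 bp from a start site of Apobec1. Jarid2, a partner of the PRC2 repressor, had 1 at 48.1 kb with a score of 147 and a summit of 10 tags. Pou5f1, Nanog and Sox2 themselves had none.

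Within 100 kb, the fibroblast and epithelial lists lay below the background of 29.9% for members and above the 42.3% for regions of both Nanog libraries. The position of the fibroblast list for members did not hold at other distances. It lay slightly above the background within 50 kb (7 of 35 genes, background 17.9%) and within 200 kb (17 of 35, background 47.2%). The epithelial list was only slightly below it at those distances (4 and 12 of 26 genes). Of 35 fibroblast and mesenchymal genes, 8 had a member (22.9%) and 24 had a region of both Nanog libraries (68.6%). Fn1, the matrix protein fibronectin, had 3 members with scores of 116, 217 and 136, and Tgfb2, a growth factor, had 1 in its intron with a score of 249. Col6a1, Prrx1, Snai1, Zeb2, Thbd and Acta2 had 1 each, with scores of 110 to 166. Of 26 epithelial genes, 5 had a member (19.2%) and 14 a region of both libraries (53.8%). Grhl2, a regulator of epithelial junction genes, had 2 with scores of 174 and 305, St14 had 2, and Tjp1, Ovol1 and Marveld2 had 1 each. The member of Col6a1 lay 129 bp from a native Nanog peak, so it was separate from that peak only narrowly.

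Transcription factors of other lineages gave mixed counts. Of 31 neural factors, 6 had a member (19.4%). Pax3, of the neural crest and muscle, had 3 in its introns with scores of 101.14, 213 and 174. Zic2 had 2, Pax6 had 1 in its intron 2.24 kb from a start site with a score of 126, and Sox1, Rax and Pou3f3 had 1 each. Of 17 trophoblast and endoderm factors, 7 had a member (41.2%) and 4 a region of native Nanog alone (23.5%), a small list in which 1 gene is worth several percentage points. Cdx2, the trophectoderm homeobox factor, had 1 at 79.5 kb with a score of 320, a summit of 31 tags and a RUNX word. Hand1 had 2 with scores of 126 and 129, and Elf5, Gcm1, Tead4, Gata6 and Sox17 had 1 each with scores of 101.34 to 183.

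The prolactin family differed most from the background in the opposite direction. These placental and pituitary hormone genes lie mostly side by side on chromosome 13, so neighbouring genes count the same regions and are not independent, and reads of near-identical copies were discarded in every library. Only Prl5a1 of the 26 had a member within 100 kb (3.85%), and that member was the strongest of all, whereas 16 (61.5%) had a strong region of native Nanog alone and 10 (38.5%) a region of both libraries. Of 26 subunits of BAF complexes, 5 had a member (19.2%). BiD binds BRG1, but the list also holds subunits such as Pbrm1 and Brd7. The study assigns these to other forms of the complex and did not detect them with NanogBiD. Smarca4, which encodes BRG1, had 2, with scores of 140 and 117, both with a RUNX word. Smarca2, its paralogue, had 1 in its intron 1.03 kb from a start site, with a score of 124 and the full NANOG word. Smarcd2, Pbrm1 and Ss18l1 had 1 each, with scores of 108 to 153.

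**Figure D5:**
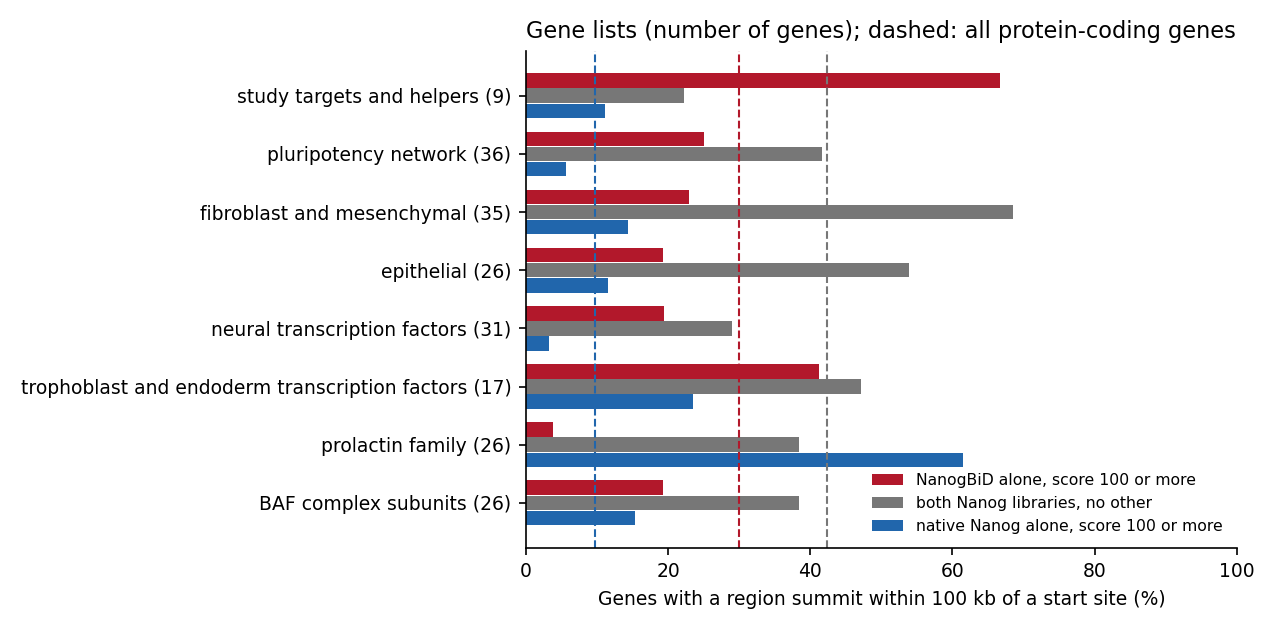
Share of the genes of each list (number of genes in brackets) with a region summit within 100 kb of a start site, for members (red), both Nanog libraries only (grey) and native Nanog alone (blue). Dashed lines mark the shares over all protein-coding genes, 29.9%, 42.3% and 9.74%. The list of study targets lay above its line for members and the prolactin family below it.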

How the data were processed

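The study's methods state that reads were trimmed with Trim Galore 0.6.4, aligned to mm10 with bowtie2 2.4.5 and filtered with SAMtools 1.16.1 to remove repetitive, mitochondrial and poorly mapped reads (mapping quality under 30). Replicates were to be merged, and peaks were called with MACS 1.4.2 (1 tag per position, shift size of 25 bp, no control named). The deposited score is the authors' −10 log10 of the p-value, with a lowest value of 50, and the height of a summit is a deposited signal, counted in tags and not scaled to depth. Total reads are not in the lists.

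From these lists, union regions, members, nearest start sites (GENCODE M21), repeats (lower case of the RefSeq GRCm38.p6 sequence) and motif matches on both strands were computed in Python 3.11.15 with NumPy 2.4.6 and pandas 2.3.3. Shares carry exact Clopper-Pearson intervals, and ratios of centre to flank a 95% interval on the log scale from the counts. The code was tested on simulated data. With 1 library per group no test was run. Members, gene lists, motifs and the rule for named genes were chosen with earlier results of these data known. The rule named the genes nearest to the 20 highest members, the listed genes with a member within 100 kb and the protein-coding genes of the 3 fullest windows of 1 Mb. A few items under this rule are not reported here. Alternatives changed the score limit, the merging, the libraries and the windows.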

Additional observations from a re-analysis of the deposited data

Results flagged for a closer look

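The strong regions that each factor held alone as a fusion and alone as the native factor were set side by side, as the log2 of the ratio of shares, with 1 library per side. 6 measures went one way for Nanog and the other way for at least one of the other factors, and the difference was not tested. The factor's own motif was more common in the fusion's regions for Nanog (4.78% against 1.71%, log2 ratio 1.48), Oct4 (3.2) and Sox2 (2.79), and less common for Nr5a2 (-1.28). AP-1 had a log2 ratio of -1.28 for Nanog, and of 1.06 for Nr5a2, -0.27 for Oct4 and 0.99 for Sox2. TEAD had -0.79 for Nanog, 0.71 for Nr5a2, -0.38 for Oct4 and 0.06 for Sox2. RUNX had 0.47 for Nanog, 1.63 for Nr5a2, -0.57 for Oct4 and -0.26 for Sox2. The share within 2 kb of a start site had 0.99 for Nanog, -0.92 for Nr5a2, 0.45 for Oct4 and 0.73 for Sox2. The share in repeats had 0.21 for Nanog, 0.09 for Sox2, 0.29 for Nr5a2 and -1.04 for Oct4. The homeobox word was more common in the regions of the fusion for all 4 factors (log2 ratios of 1.05 to 2.06).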

How the results depend on the processing

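Of 59 alternatives, 35 left the value within its counting interval or, for counts, within 1.5 times, and 24 moved it; for the moved values the cause was not tested beyond the alternative's own construction. The number of members was 11250, 1809 and 914 at score limits of 50, 150 and 200, 2651 with a summit of 20 tags or more in place of the score, and 12023 without the native Nanog list, but 4024 to 4685 without any one of the other lists. At those score limits the NANOG word was at 4.08%, 5.64% and 5.80% of summits, and repeats held 11.4% at the limit of 50. Within 25 bp the word was at 2.38% and within 100 bp at 7.76%; its ratio to the flanks stayed between 4.13 and 6.0 in every alternative run. The promoter share was 3.66% at 500 bp, 24.4% at 5 kb and 5.01% with protein-coding start sites only, 9.89% for members with no other peak within 1 kb and 13.6% with the limit on height. Within 50 kb, genes with a member numbered 3 in the trophoblast and endoderm list and 3 among BAF subunits. Within 200 kb they numbered 15 in the pluripotency, 17 in the fibroblast, 12 in the epithelial, 11 in the neural and 2 in the prolactin list and 13 among BAF subunits, while the background went from 17.9% at 50 kb to 47.2% at 200 kb. No paired analysis was possible because each group holds 1 library. The reads left after filtering are not in the peak lists, and libraries differed in read pairs, so a region called alone may hold signal under the threshold in a shallower library.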
